A study of Bos taurus with 38 samples.

Results

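BOLA-A (ENSBTAG00000005182), a bovine major histocompatibility complex (MHC) class I gene, and IFI6 (ENSBTAG00000007554), interferon alpha inducible protein 6, are described here in liver RNA-seq libraries of Holstein and Jersey dairy cows. They are 2 of the 24616 Ensembl genes counted, and were taken by identifier. The 38 libraries came from liver biopsies of 9 Holstein and 10 Jersey cows in lactation, with 2 libraries per cow: one on the control diet (C, low concentrate) and one on the high concentrate diet (HC). Cows had been chosen as high or low in residual feed intake (RFI), the intake that remains after the intake predicted from body weight, weight change, body condition and milk yield is taken off. A high-RFI cow is therefore a feed-inefficient one, labelled low in feed efficiency. The column that the study's table of cows calls RFI group has high and low the other way round, as in the labels for feed efficiency, and the RFI values in that table place its high cows lower. The exception is in Holsteins, where cow 1 of the low-RFI group ranks 6 from the lowest RFI and cow 15 of the high-RFI group ranks 5. High-RFI cows numbered 4 in Holsteins and 5 in Jerseys, low-RFI cows 5 in each breed, all of parity 1, 2 or 3, and the order of the diets over the periods of the crossover differed between cows. The cows were selected from 1 research herd for their RFI, so the groups represent that herd.

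MHC class I molecules carry peptides from inside the cell to its surface, where CD8 T cells read them. Cattle hold several class I genes, and the set of genes differs between haplotypes, so that read pairs of one gene can also match its relatives, and the BOLA-A count is uncertain to that extent. IFI6 encodes a small membrane protein and is a classical interferon-stimulated gene: type I interferon signals through its receptor to transcription factors, which switch such genes on. Class I genes also answer to interferon, and this shared input is the link between the 2 genes. In liver, hepatocytes, endothelial cells, Kupffer cells and lymphocytes all carry class I molecules.

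Each library held between 17472750 and 24478289 read pairs on genes. Expression is given as CPM, the count of a gene scaled to the same total over genes in each library. BOLA-A was covered by 206 to 809 read pairs per library and IFI6 by 85 to 749. Counting error alone thus gave a coefficient of variation of 3.52% to 6.97% for BOLA-A and 3.65% to 10.8% for IFI6. CYP7A1, the rate-limiting enzyme of bile acid synthesis and a hepatocyte gene, was detected in all 38 libraries at 37.97 to 1042 CPM (chosen after its values were seen). A broader check of the tissue was not possible, because none of the 10 hepatocyte markers listed could be paired with an identifier.

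Before the results, libraries were compared with each other over 200 genes whose level was repeatable between the libraries of a cow, chosen for each cow from the other cows and without BOLA-A and IFI6. In 15 of the 19 cows both libraries were closest to each other, with r between 0.770 and 0.957 and at most 0.568 to any library of another cow. The 8 libraries of cows 10, 14, 15 and 17 were each closest to a library of another cow, with r between 0.845 and 0.937. The library labelled cow 10 C was closest to cow 17 C, and cow 10 HC to cow 17 HC. All these are low-RFI Jerseys. The library labelled cow 14 C, a low-RFI Jersey, was closest to cow 15 HC (r = 0.925), from a high-RFI Holstein, and cow 14 HC was closest to cow 15 C (r = 0.845). The libraries labelled cow 14 had r = 0.364 with each other and those labelled cow 15 had r = 0.392. No label was changed. Cows 14 and 15 differ in breed and in RFI group, so results that rest on them are given with and without them.

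**Figure D1:**
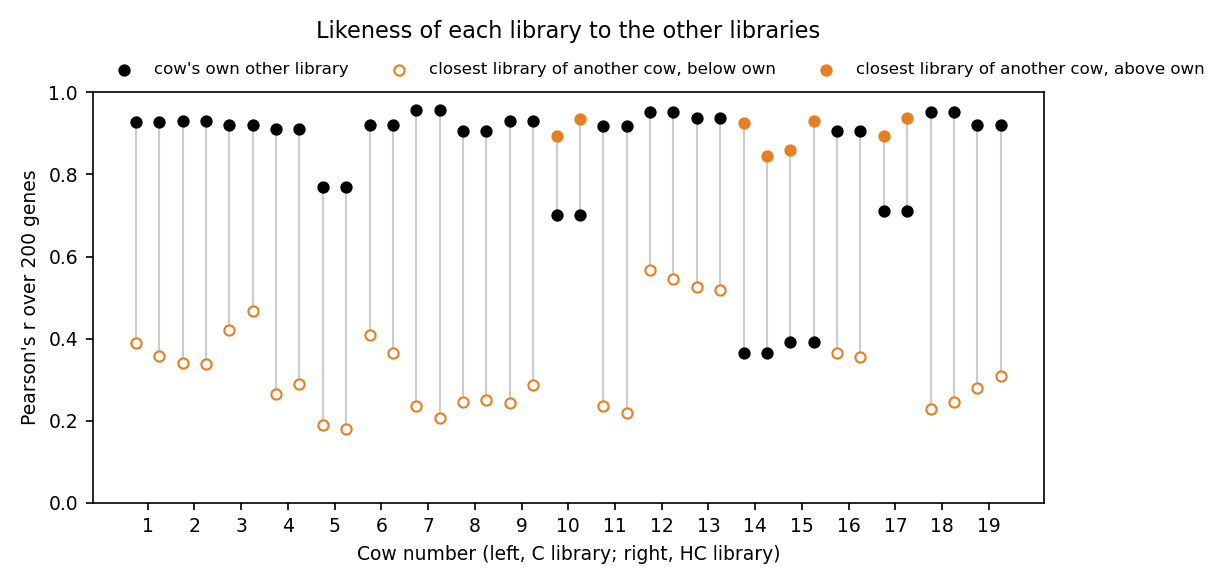
Pearson's r over 200 repeatable genes (y axis) for the C and HC library of each cow (x axis), with black points for the other library of the same cow and orange points for the closest library of another cow. In cows 10, 14, 15 and 17 the orange points, filled there, lie above the black ones, and in the other 15 cows they lie below.

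BOLA-A was expressed in all 38 libraries, between 10.9 and 33.0 CPM with a median of 21.0. In the high-RFI Holsteins the mean of both libraries was 23.6 CPM in cow 2, 25.8 in cow 7, 17.7 in cow 9 and 21.6 in cow 15. The low-RFI Holsteins had 19.3 CPM in cow 1, 17.3 in cow 6, 19.3 in cow 11, 20.6 in cow 16 and 23.4 in cow 19. These groups overlapped over most of their range. Among the high-RFI Jerseys, the level was 13.6 CPM in cow 3, 19.6 in cow 4, 18.9 in cow 12, 20.4 in cow 13 and 17.7 in cow 18. The low-RFI Jerseys had 25.5 CPM in cow 5, 28.9 in cow 8, 22.1 in cow 10, 27.5 in cow 14 and 23.7 in cow 17. All 5 high-RFI Jerseys were below all 5 low-RFI Jerseys. The share of all genes that separate these groups fully is not given here, and the study had listed BOLA-A for this contrast. Ordered by mean, the groups were low-RFI Jersey (25.6 ± 2.75 CPM, SD, n = 5), high-RFI Holstein (22.2 ± 3.40, n = 4), low-RFI Holstein (19.98 ± 2.26, n = 5) and high-RFI Jersey (18.04 ± 2.68, n = 5). Each group overlapped with its neighbour in this order.

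IFI6 was expressed at a lower level, between 4.11 and 30.6 CPM with a median of 7.62. The high-RFI Holsteins had 9.59 CPM in cow 2, 6.23 in cow 7, 8.44 in cow 9 and 9.52 in cow 15. In the low-RFI Holsteins it was 7.33 CPM in cow 1, 4.70 in cow 6, 6.89 in cow 11, 4.45 in cow 16 and 6.31 in cow 19. Of the 4 high-RFI Holsteins, cow 7 alone was within the range of the low-RFI Holsteins. The high-RFI Jerseys had 7.98 CPM in cow 3, 9.60 in cow 4, 5.78 in cow 12, 9.17 in cow 13 and 10.1 in cow 18. In the low-RFI Jerseys the values were 9.19 CPM in cow 5, 11.7 in cow 8, 7.77 in cow 10, 18.8 in cow 14 and 6.16 in cow 17. Cow 14 was the highest of all cows, and without it the Jersey groups lay over each other. The order by mean was low-RFI Jersey (10.7 ± 4.94 CPM, n = 5), high-RFI Jersey (8.52 ± 1.72, n = 5), high-RFI Holstein (8.44 ± 1.57, n = 4) and low-RFI Holstein (5.94 ± 1.29, n = 5). Neighbours in this order overlapped. Without cows 14 and 15 the low-RFI Jersey mean was 8.70 ± 2.33 CPM (n = 4) and the high-RFI Holstein mean 8.09 ± 1.71 (n = 3).

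**Figure D2:**
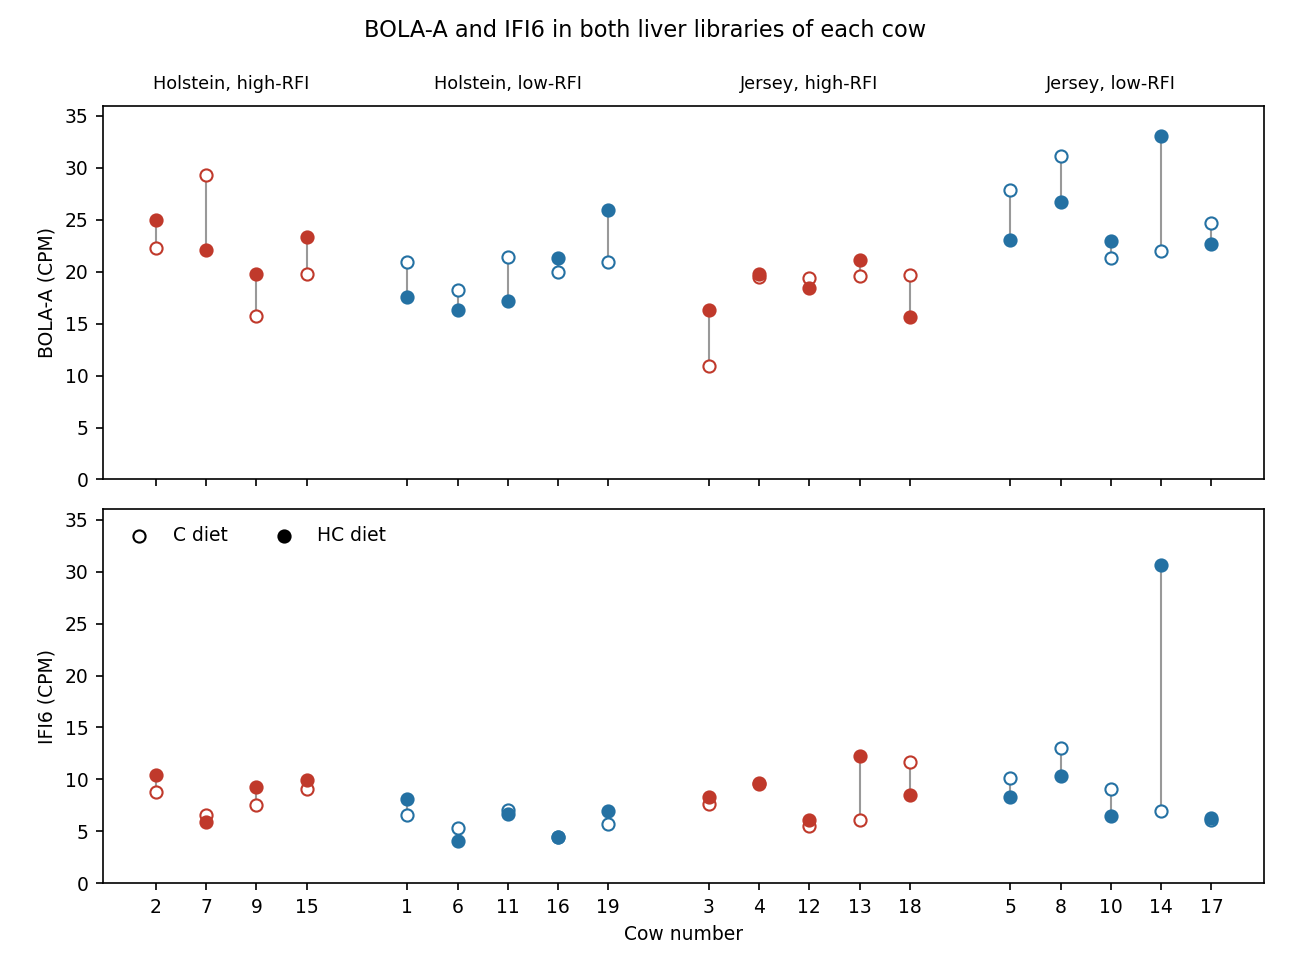
BOLA-A (top) and IFI6 (bottom) in CPM (y axes) in each cow (x axis, by breed and RFI group). Open points are C libraries and filled points HC libraries of the same cow, joined by a line. BOLA-A of the low-RFI Jerseys lies above that of the high-RFI Jerseys on either diet, and the HC library labelled cow 14 is the highest for IFI6 at 30.6 CPM. The share of all genes that separate the Jersey groups is not given.

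The first comparison asked whether high- and low-RFI cows of a breed differed. In Jerseys, BOLA-A was lower in high-RFI cows by a log2 difference of -0.49 (SE 0.093), which did not pass the threshold of 0.05 in edgeR's quasi-likelihood test (adjusted p = 0.0873). Of the 11905 genes tested, 4 passed (0.0336%). The low-RFI Jerseys were higher on both diets: 21.3 to 31.2 CPM against 10.9 to 19.7 in the high-RFI Jerseys on C, and 22.7 to 33.0 against 15.7 to 21.1 on HC. In the permutation of cows the difference of cow means was -0.51, with an exact two-sided p = 0.00794, the smallest that 5 against 5 can give. Its Benjamini-Hochberg adjusted value over the 20 permutation tests of this kind was 0.159. Cows were exchanged freely, not within the selection blocks, which matched cows for lactation stage and parity group. Both p-values thus leave this matching out. The high-RFI cow was the lower one in all 5 selection blocks, each of which holds 1 high- and 1 low-RFI Jersey. As the groups do not overlap, any such pairing must give this result, so it adds no support. How many other genes separate these groups is not given here. Since the study listed BOLA-A as a gene of the RFI contrast in these Jerseys, these values are not independent evidence of its direction.

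Whether this difference passed depended on the tool and on how RFI entered the model. Its adjusted p was also higher where each cow counted once, while its size stayed at -0.49. With the 2 libraries of each cow summed, so that the cow is the unit, BOLA-A was -0.49 (SE 0.10) and did not pass (edgeR adjusted p = 0.9997, unadjusted p = 0.000792). No gene passed in that fit (0%), with 461 at an unadjusted p under 0.05. BOLA-A passed in DESeq2's Wald test (log2 difference -0.49, adjusted p = 0.000839), where 0.176% of genes passed. It also passed in edgeR with the cow's RFI rank instead of its group (-0.10 per rank, adjusted p = 0.0336), where 0.042% of genes passed. Without cow 14 it was -0.48 (SE 0.095, edgeR adjusted p = 0.104), and without cows 10, 14 and 17, which leaves 2 low-RFI Jerseys, it was -0.68 (SE 0.14, edgeR adjusted p = 0.181).

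BOLA-A of the Holsteins, which the study's list did not pick, had a log2 difference between high- and low-RFI cows of 0.16 (SE 0.11, edgeR adjusted p = 0.768), and 0.0665% of genes passed in that fit. The high-RFI cow was the higher one in 3 of the 4 selection blocks that hold both kinds of cow (exact two-sided permutation p = 0.278 over 4 and 5 cows). With 1 cow left out at a time the log2 difference lay between 0.051, without cow 2, and 0.28, without cow 15, and was 0.076 without cow 7. None of these passed (edgeR adjusted p from 0.493 to 0.992).

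IFI6 in Holsteins was 8.44 CPM in high-RFI and 5.94 in low-RFI cows, a log2 difference of 0.52 (SE 0.14) that did not pass (edgeR adjusted p = 0.270). Of all genes tested, 0.499% had a smaller p. The high-RFI cow was higher in 3 of 4 selection blocks, by 1.10, 1.03 and 0.29 on the log2 scale, and lower by a log2 difference of -0.23 in the fourth block, of cows 7 and 1. The exact two-sided permutation p over 4 and 5 cows was 0.0714. DESeq2's Wald test gave an adjusted p = 0.0592, where 0.507% of genes passed. Without cow 15 the log2 difference was 0.40 (SE 0.17, edgeR adjusted p = 0.425). With the libraries of each cow summed it was 0.52 (SE 0.18, edgeR adjusted p = 0.987), and no gene passed (0%), with 555 at an unadjusted p under 0.05. IFI6 was on the study's list for this contrast in Holsteins, so that its direction there is not independent evidence either.

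For IFI6 in Jerseys, the log2 difference between high- and low-RFI cows was -0.30 (SE 0.24) with an edgeR adjusted p of 0.985, and the exact permutation over cows gave p = 0.492. It rested on cow 14: without that cow it was -0.02 (SE 0.17, edgeR adjusted p = 0.996). Without cows 10 and 17, in contrast, it was -0.47 (SE 0.25, edgeR adjusted p = 0.783).

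**Figure D3:**
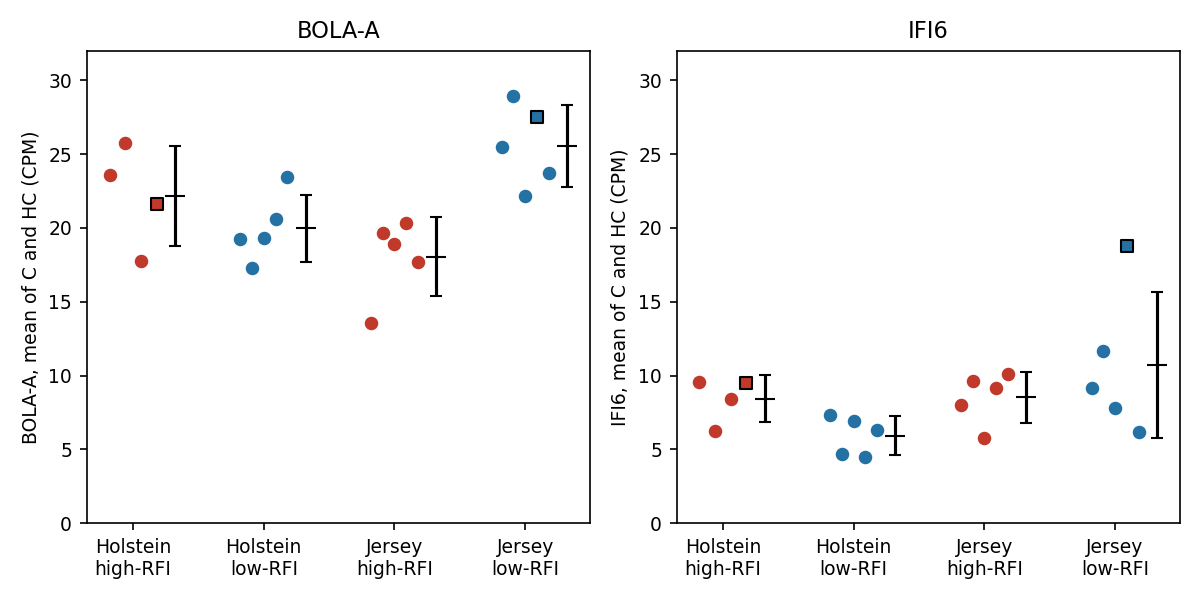
Mean CPM of both libraries of each cow (y axes) for BOLA-A (left) and IFI6 (right) in high-RFI (red) and low-RFI (blue) cows of each breed (x axes). Squares with black edges are cows 14 and 15, and the bars beside the points give the group mean ± SD. BOLA-A of high- and low-RFI Jerseys does not overlap, from 13.6 to 20.4 CPM and from 22.1 to 28.9 CPM. The share of all genes that separate these groups is not given.

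Whether the RFI difference itself differed between the breeds was tested in a joint fit of all 38 libraries. BOLA-A had an RFI difference lower in Jerseys than in Holsteins by a log2 value of -0.65 (SE 0.15, edgeR adjusted p = 0.0743), which missed the threshold. Here 6 of 12103 genes passed (0.0496%). The study had listed BOLA-A for RFI in these Jerseys and IFI6 for RFI in these Holsteins. For each gene the term thus holds a contrast that the gene was selected on, and its values are not independent evidence. With the libraries of each cow summed BOLA-A was again at -0.65 (SE 0.17) but far from the threshold (edgeR adjusted p = 0.722), and 0.0165% of genes passed. DESeq2's Wald test, over libraries, called it (-0.65, adjusted p = 0.0129), with 0.289% of genes called. Without cows 14 and 15 the value was -0.77 (SE 0.17, edgeR adjusted p = 0.0520), with 0.14% of genes called. Leaving out cows 10, 14, 15 and 17 gave -0.96 (SE 0.20, edgeR adjusted p = 0.0424), with 0.223% called, and BOLA-A among them. In the fits that each left out 1 cow, it passed in 2 of 19, those without cow 9 (-0.71, edgeR adjusted p = 0.0343) and without cow 15 (-0.78, edgeR adjusted p = 0.0425). For IFI6 the same term was -0.82 (SE 0.30, edgeR adjusted p = 0.421) and, without cows 14 and 15, -0.43 (SE 0.26, edgeR adjusted p = 0.692).

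Diet was the next comparison, in fits with parity and RFI group but without the cow. In Holsteins, BOLA-A had 21.0 ± 3.70 CPM on C and 20.9 ± 3.49 on HC (SD, n = 9), and IFI6 had 6.80 ± 1.53 and 7.30 ± 2.29. The log2 differences, HC minus C, were 0.02 (SE 0.11) for BOLA-A and 0.11 (SE 0.13) for IFI6, with edgeR adjusted p of 0.969 and 0.822, where 0.782% of genes passed. In Jerseys, BOLA-A had 21.6 ± 5.51 CPM on C and 21.98 ± 5.14 on HC (n = 10), a log2 difference of 0.08 (SE 0.093, edgeR adjusted p = 0.767), where 0.37% of genes passed. IFI6 had 8.57 ± 2.55 and 10.7 ± 7.27 CPM, a difference of 0.30 (SE 0.24, edgeR adjusted p = 0.664), which without cow 14 was 0.01 (SE 0.16, edgeR adjusted p = 0.990). With the cow as a block, that is within cows, the differences in Holsteins were 0.03 (SE 0.087) for BOLA-A and 0.10 (SE 0.079) for IFI6, with edgeR adjusted p of 0.918 and 0.606, and 2.87% of genes passed. In Jerseys the block gave 0.09 (SE 0.081) and 0.24 (SE 0.22), with edgeR adjusted p of 0.680 and 0.696, and 0.596% of genes passed. Either gene was higher on HC in 5 of 9 Holsteins and in 5 of 10 Jerseys, and the exact sign-flip permutation p over cows was between 0.398 and 0.984.

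Single cows moved beyond counting error all the same. For BOLA-A the exact binomial 95% interval of the HC/C ratio excluded 1 in 11 of 19 cows, with 5 higher and 6 lower on HC. The largest ratios were 1.51 in cow 14 and 1.495 in cow 3, and the smallest was 0.754 in cow 7. For IFI6 the interval excluded 1 in 5 cows. The ratio was 4.39 in cow 14 (interval 3.66 to 5.30) and 2.01 in cow 13 (1.62 to 2.51), and it was lower in cows 8, 10 and 18, at 0.796, 0.710 and 0.725. These intervals cover counting error only and compare 2 libraries, not the diets. In cows 10, 14, 15 and 17 the libraries compared were each closer to another cow's. The ratios are of CPM without TMM scaling, which changed levels by at most 11.9%. How often the interval excludes 1 for other genes is not given here. On the log2 scale, 42.1% of 11827 genes had a smaller SD between the 2 libraries of a cow than BOLA-A. For IFI6 it was 90.0%.

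Cow 14 had 6.97 CPM of IFI6 on C and 30.6 on HC, and its BOLA-A was 21.95 on C and 33.0 on HC. Cow 15, whose libraries were the closest to those of cow 14, had 9.11 CPM of IFI6 on C and 9.93 on HC, and 19.8 and 23.4 CPM of BOLA-A. The HC library labelled cow 14 was therefore above both the library of its own label and the library closest to it. Between the libraries of cow 14, 974 of 11905 genes were at least 2-fold higher on HC, against 17 to 366 genes in the other 18 cows, while 308 were at least 2-fold lower, against 58 to 1292 in the others. IFI6 ranked 130th among the genes of that cow by HC/C ratio and BOLA-A ranked 2144th.

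The diet difference of high-RFI cows was next set against that of low-RFI cows, again in fits without the cow. Neither gene differed detectably in edgeR: the interaction was 0.04 (SE 0.22) for BOLA-A and 0.03 (SE 0.27) for IFI6 in Holsteins, and 0.04 (SE 0.19) and -0.21 (SE 0.49) in Jerseys, with adjusted p from 0.999 to 1. In those fits no gene passed in edgeR (0%), with 206 and 443 genes at an unadjusted p under 0.05, and DESeq2's Wald test called 0 and 2. The IFI6 value in Jerseys was 0.44 (SE 0.32) without cow 14. A fit with the cow as a block is not given for this interaction. Exact permutation over cows of the HC minus C differences gave p between 0.452 and 0.921.

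Parity 3 was compared with parity 1. In Holsteins, the log2 difference was -0.18 (SE 0.13, edgeR adjusted p = 0.680) for BOLA-A, from 20.05 ± 3.23 and 21.9 ± 1.42 CPM (n = 3 and 3), and 0.06 (SE 0.16, edgeR adjusted p = 0.942) for IFI6. In Jerseys, the values were -0.05 (SE 0.10) and -0.15 (SE 0.27), with edgeR adjusted p of 0.878 and 0.852, and that of IFI6 was 0.15 (SE 0.19) without cow 14. The share of genes that passed was 0.383% in Holsteins and 0.227% in Jerseys. Exact permutation over cows gave p between 0.5 and 0.971, where 3 against 3 Holsteins cannot go below 0.1.

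Breed set Jersey against Holstein cows. BOLA-A was 21.8 ± 4.71 CPM in Jerseys (n = 10) and 21.0 ± 2.87 in Holsteins (n = 9), a log2 difference of 0.06 (SE 0.088, edgeR adjusted p = 0.756). IFI6 was 9.62 ± 3.68 CPM in Jerseys and 7.05 ± 1.87 in Holsteins, a difference of 0.41 (SE 0.17, edgeR adjusted p = 0.110). Without cows 14 and 15 the value was 0.32 (SE 0.12), still short of the threshold (edgeR adjusted p = 0.0783). Neither gene passed, in a fit where 9.68% of genes did. For IFI6 the exact two-sided permutation p over 10 and 9 cows was 0.0594 (adjusted over the 20 permutation tests, 0.476; 0.0373 without cows 10, 14, 15 and 17, not adjusted), and cows of the breeds overlapped between 5.78 and 9.59 CPM. Without cows 14 and 15 the same fit called 15% of genes, 1821 in place of 1172.

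Over the crossover periods, BOLA-A had 21.2 ± 4.21 CPM in period 1 and 21.6 ± 4.74 in period 2 (n = 19 libraries each), and IFI6 had 7.75 ± 2.36 and 9.05 ± 5.60. The log2 differences, period 2 minus period 1, were 0.01 (SE 0.088) and 0.18 (SE 0.16) with edgeR adjusted p of 0.998 and 0.997, and that of IFI6 was -0.01 without cows 14 and 15. No gene passed in edgeR (0%), with 503 at an unadjusted p under 0.05, nor did any in DESeq2. These fits leave out the cow, although each cow has a library in each period. With the cow as a block, the differences were 0.002 (SE 0.061) for BOLA-A and 0.12 (SE 0.13) for IFI6. Their edgeR adjusted p was 0.998 and 0.945. Exact permutation over cows gave p = 0.714 and 0.351.

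**Figure D4:**
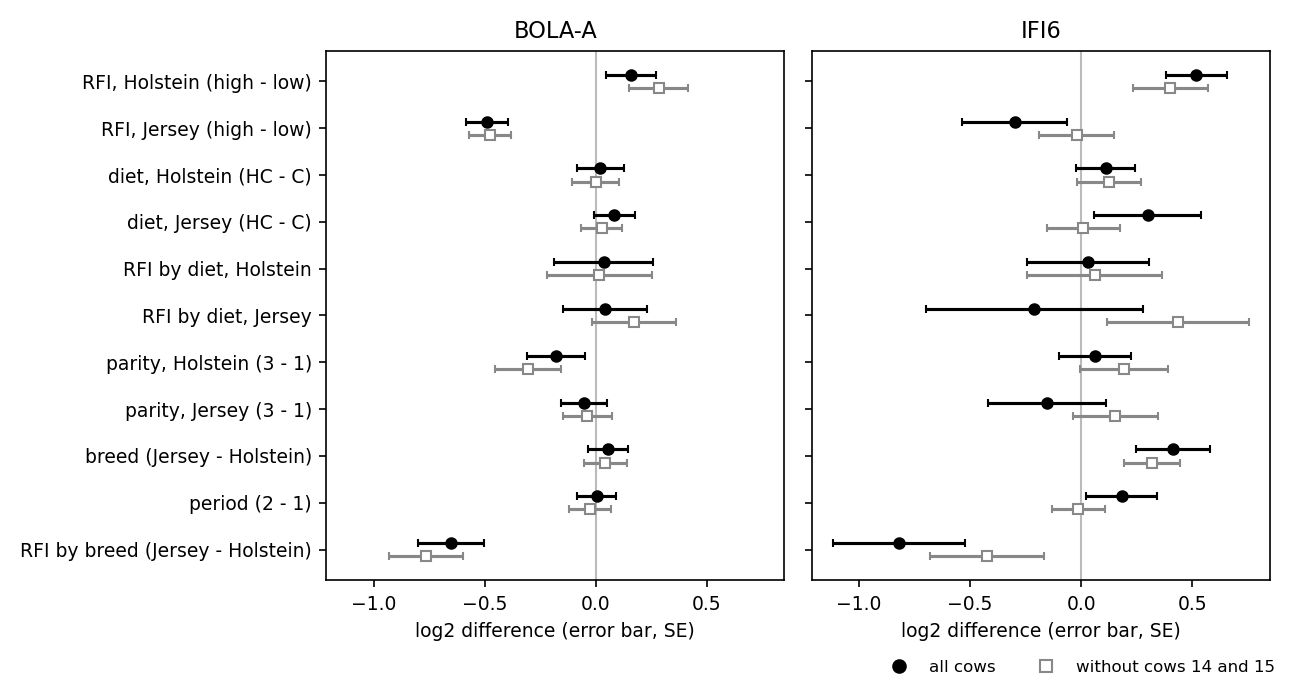
Log2 differences (x axes, error bars SE) of BOLA-A (left) and IFI6 (right) in each comparison (y axis), from edgeR with all cows (black circles) and without cows 14 and 15 (grey squares). BOLA-A is farthest from 0 in the comparison of RFI in Jerseys (-0.49) and its difference between breeds (-0.65), and the values of IFI6 that involve Jerseys lie closer to 0 or across it without cows 14 and 15, the interaction of RFI and diet going from -0.21 to 0.44.

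Cows differed from each other in both genes more than most genes did. On the log2 scale and within breeds, the SD between cows was 0.27 for BOLA-A and 0.39 for IFI6, against a median of 0.17 over 11827 genes, and 80.7% and 92.7% of those genes had a smaller SD. The SD within cows, between libraries, was 0.21 for BOLA-A and 0.42 for IFI6, against a median of 0.23. Without cows 10, 14, 15 and 17 the SD within cows was 0.20 and 0.25. The SD between cows is not given without these cows, and for IFI6 it includes cow 14 at 18.8 CPM. Counting error accounted for an SD of 0.072 and 0.12. A cow's level on C was compared with its level on HC (computed after the values were seen). Over 11827 genes the median r was 0.13. Of the values below, only rho passed 0.05 after adjustment. For BOLA-A, Pearson's r was 0.53 over 19 cows (adjusted permutation p = 0.0502) and Spearman's rho 0.63 (adjusted permutation p = 0.00936), with r = 0.62 without cows 14 and 15 and r = 0.35 without the 2 cows farthest from the median. For IFI6, r was 0.28 (adjusted permutation p = 0.292) and rho 0.46 (adjusted permutation p = 0.0494), with r = 0.55 without cows 14 and 15 and r = 0.21 without the farthest 2. These p-values are adjusted over 3 genes, the third of which is JSP.1, described next.

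BOLA-A and IFI6 were compared over cows, as both are linked to interferon. Centred within breeds, the cow means had r = 0.33 (permutation p = 0.189) and rho = 0.29 (permutation p = 0.230) over 19 cows. Adjusted over the 39 relations tested, these p-values were 0.351 and 0.393. Within Holsteins r was 0.20 (exact permutation p = 0.599) and rho 0.15, and within Jerseys r was 0.41 (permutation p = 0.241) and rho 0.41. Without cows 3 and 8, the farthest from the median of BOLA-A, r was 0.27, and without cows 14 and 15 it was 0.20. On HC alone r was 0.56 (permutation p = 0.0202, not adjusted), but 0.23 (permutation p = 0.383) without cows 14 and 15. On C alone it was 0.24. No setting without cow 14 gave a permutation p below the threshold. Among 11826 genes ordered by r, IFI6 stood at rank 1992 for likeness to BOLA-A, and BOLA-A at rank 2863 for likeness to IFI6.

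**Figure D5:**
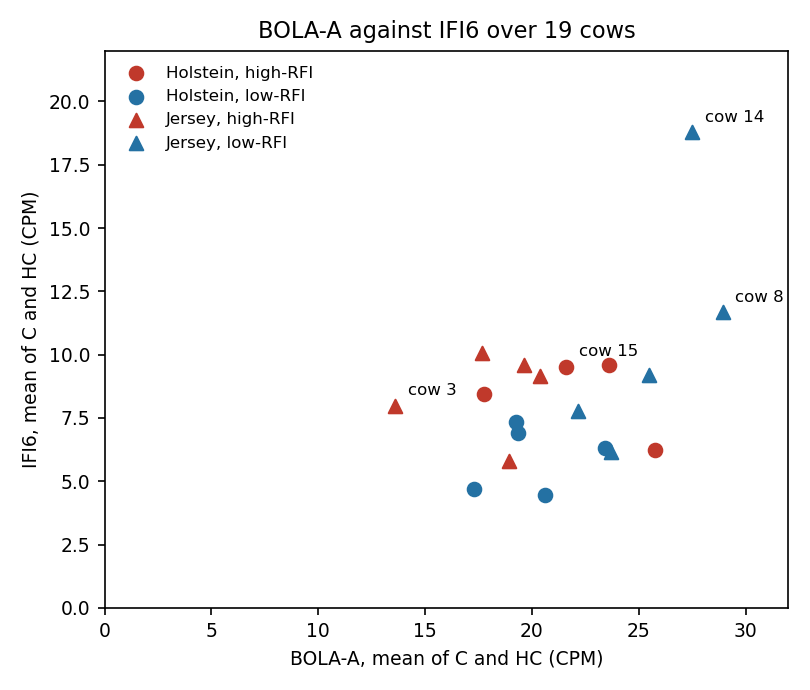
IFI6 (y axis) against BOLA-A (x axis), each as mean CPM of both libraries of a cow, for 19 cows by breed (circles Holstein, triangles Jersey) and RFI group (red high, blue low). Cow 14 stands apart at 27.5 CPM of BOLA-A and 18.8 CPM of IFI6, and with cows 14 and 15 left out r is 0.20.

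Of the class I antigen presentation list, 1 of 24 genes could be paired with an identifier: JSP.1 (ENSBTAG00000020116), another MHC class I gene. Over the libraries it ranged from 5.90 to 605 CPM, a 103-fold range, while BOLA-A stayed within 10.9 to 33.0 CPM. Cow 2 had 605 CPM on C and 559 on HC, and cow 1 had 7.87 and 5.90. Each cow mostly kept its own level, with r = 0.84 between C and HC over 19 cows (adjusted permutation p = 0.00165; rho = 0.68) r = 0.98 without cows 10, 14, 15 and 17, and r = 0.50 without the 2 cows farthest from the median. Cow 14 had 32.8 CPM on C and 194 on HC, and cow 15 had 112 on C and 34.5 on HC. The RFI difference of JSP.1 was 2.26 (SE 0.61, edgeR adjusted p = 0.282) in Holsteins, where the study had listed it, and -0.38 (SE 0.29, edgeR adjusted p = 0.978) in Jerseys. BOLA-A and JSP.1 had r = 0.35 over cows and IFI6 and JSP.1 r = 0.36, neither past the threshold (adjusted permutation p = 0.318 for each).

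Every gene that could be named is on one of the study's lists of RFI genes, so the named genes were selected on these samples. Lymphocyte genes made up most of the other immune genes with a known identifier. From the T and NK cell list, 2 of 16 markers were paired: CD3D, a chain of the T cell receptor complex, at 1.74 to 8.37 CPM, and NKG7, a granule protein of cytotoxic cells, at 5.87 to 16.7 CPM. CD3D was higher in high-RFI Holsteins by 0.59 (SE 0.16, edgeR adjusted p = 0.282) and lower in high-RFI Jerseys by -0.38 (SE 0.13, edgeR adjusted p = 0.676), with -0.98 (SE 0.20, edgeR adjusted p = 0.0581) for the difference between breeds. These are the directions of BOLA-A, and none of them passed. The study had listed CD3D for Holsteins, so its direction there is not independent. NKG7 was higher in high-RFI Holsteins by 0.51 (SE 0.13, edgeR adjusted p = 0.220), and in Jerseys its difference was -0.10 (SE 0.13, edgeR adjusted p = 0.991). Over cows, CD3D had r = 0.50 with BOLA-A and r = 0.53 with IFI6 (adjusted permutation p = 0.268 for each). NKG7, the other paired marker, had r = 0.24 with BOLA-A and r = 0.14 with IFI6 (adjusted permutation p = 0.435 and 0.636). GIMAP8, a GTPase of lymphocytes, had r = 0.52 with BOLA-A (adjusted permutation p = 0.268) and r = 0.40 with IFI6 (adjusted permutation p = 0.318, rho = 0.13). Its RFI difference was 0.51 (SE 0.30, edgeR adjusted p = 0.696) in Holsteins and -1.48 (SE 0.29, edgeR adjusted p = 0.0914) in Jerseys, its listed breed. For HCLS1, listed for Holsteins, it was 0.39 (SE 0.095, edgeR adjusted p = 0.218) there and -0.17 (SE 0.092, edgeR adjusted p = 0.927) in Jerseys. HCLS1 had r = 0.39 with BOLA-A and r = 0.37 with IFI6 (adjusted permutation p = 0.318 for each). None of the 39 relations passed after adjustment. Some immune genes with an identifier did pass in fits over libraries where BOLA-A and IFI6 did not. In the RFI fits of a breed these were in the breed for which the study had listed them, and all such calls were lost with the libraries of each cow summed, where no gene passed for RFI in either breed. CR2, a complement receptor and the 1 of 8 B cell markers that was paired, was lower in high-RFI Holsteins by a log2 difference of -0.67 (SE 0.11, edgeR adjusted p = 0.0141), but did not pass without cow 15 (-0.64, edgeR adjusted p = 0.0692). Its r over cows was 0.18 with BOLA-A and -0.04 with IFI6. LYZ, a lysozyme, was higher in high-RFI Holsteins by 0.98 (SE 0.16, edgeR adjusted p = 0.0232). GIMAP4, another GTPase of lymphocytes, was lower in high-RFI Jerseys by a log2 difference of -2.01 (SE 0.34, edgeR adjusted p = 0.0371), and did not pass without cow 14 (-1.76, edgeR adjusted p = 0.0530). LYZ also passed between breeds (-0.64, edgeR adjusted p = 0.0109) and for the difference of RFI between breeds (-1.26, edgeR adjusted p = 0.00271), and GIMAP4 for the latter (-3.33, edgeR adjusted p = 0.0283). LYZ and GIMAP4 were chosen after their values were seen. No marker of Kupffer cells, endothelium, stellate cells, cholangiocytes, muscle or blood, and no class II gene, could be paired. The part of lymphocytes in the levels of BOLA-A and IFI6 was not tested, and in bulk tissue fewer cells of a type cannot be told apart from less RNA per cell. None of the 52 interferon-stimulated genes or 28 interferon signalling genes listed for comparison could be paired with an identifier, and they are not analysed here.

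The genes most like each member were sought among 11826 genes by r over the 19 cow means. For BOLA-A the closest 5 had r from 0.76 to 0.78, ENSBTAG00000024487 being the first, and the most opposed were ENSBTAG00000012972 (r = -0.76) and ZNF197 (r = -0.69). IFI6 had r from 0.80 to 0.83 with its closest 5, with ENSBTAG00000013919 the first, and r = -0.70 with the most opposed, ENSBTAG00000011242. None of the closest 5 of either gene has a name in the files used here. By rank correlation, 1 of the 5 for BOLA-A and 2 of the 5 for IFI6 remained among the closest 5. Without cows 14 and 15 it was 1 and 0 of 5. With so many genes and 19 cows the closest genes are chosen for their r, and the values are a description.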

How the data were processed

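The deposited files hold raw read pair counts per Ensembl gene, 1 table per library, made by the authors from TruSeq Stranded mRNA libraries sequenced on 4 lanes of 1 run. The authors trimmed adapters with cutadapt, aligned with STAR 2.3.0 to UMD3.1 and counted with HTSeq, whose version and strand setting are not given in the sources used here. Between 20.1% and 25.1% of read pairs in a table were on rows that name no gene (no feature or ambiguous) and were left out. Cow numbers, breed, feed efficiency, diet and parity come from the labels. Period, selection block and RFI rank come from the study's table of cows, whose cow identifiers are also in the sample descriptions. Breed, parity and efficiency group matched for all 19 cows. No sequence or coordinate is given, since no genome, promoter or protein table of this build was used here.

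CPM was computed on the total over genes, and log2 CPM with a prior count of 2. A gene was tested where 8 or more Holstein, or 10 or more Jersey, libraries reached 1 CPM. Fits were made by edgeR 4.0.16 under R 4.3.3, scaled by TMM, with the quasi-likelihood test, and a call was a Benjamini-Hochberg adjusted p below 0.05. Each breed was fitted with parity, diet and RFI group, and a second model added the interaction of diet and RFI. Both breeds together were fitted for breed, period and the difference of RFI between breeds. The SE is the absolute log2 difference divided by the square root of F. All tests are two-sided. Alternatives used DESeq2 1.42.0, limma 3.58.1 (voom with a replicate block), other scalings, filters and covariates, and each cow left out. Scripts for the fits were tested on simulated data. Permutation tests used cows, exactly or with 100000 resamples within breeds for correlations (Python 3.11.15, scipy 1.17.1). Those of RFI did not keep the selection blocks.

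The labels give the C and HC libraries of a cow the same number, so they are paired. Deviations from the group means had a mean r of 0.420 between libraries of a Holstein and 0.304 of a Jersey, against -0.0875 and -0.0707 between cows, and cow 14 was the lowest at -0.112. Among libraries of the same breed and over all genes tested, the own other library was the closest for 18 of 18 Holstein and 14 of 20 Jersey libraries. The comparison across both breeds over 200 repeatable genes differs in both respects. No 2 libraries agreed within sampling noise. P-values over libraries count a cow's 2 libraries as separate samples.

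Both genes and the gene lists were chosen with earlier results of these data known, and the fits without cows 14 and 15, and without cows 10, 14, 15 and 17, were chosen after seeing the data. Genes were named if they were BOLA-A or IFI6, on one of the interferon, antigen presentation or cell marker lists, or, in each direction, among the genes most like them over cows. HCLS1, GIMAP4, GIMAP8, LYZ and CYP7A1 were looked at after their values were seen. Symbols could be paired with identifiers only for the 77 genes that the study's own lists of RFI genes name, and for 4 of the 201 genes listed.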

Additional observations from a re-analysis of the deposited data

Results flagged for a closer look

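Over 28 groups of 4 to 10 values of BOLA-A or IFI6, 3 held a value that stood apart by Dixon's criterion at 95%. Chance flags about 1 in 20 groups. BOLA-A of the C library of cow 3, at 10.9 CPM, was far below the other high-RFI Jerseys on C, which lay between 19.4 and 19.7 CPM. IFI6 of the HC library labelled cow 14 was far above the other low-RFI Jerseys on HC, at 30.6 CPM. The HC/C ratio of IFI6 in that cow, 4.39, was also far above that of the other Jerseys, the next being 2.01 in cow 13.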

How the results depend on the processing

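BOLA-A and IFI6 together gave 22 fitted log2 differences and 1 correlation, none past its threshold with the settings first reported. Outside the fits that left out 1 cow, 189 of the recomputed values kept the direction and the side of the threshold, 5 passed and 9 changed sign. The values of BOLA-A that passed were the RFI difference in Jerseys with DESeq2 (-0.49) and per rank of RFI (-0.097), and its difference between breeds with DESeq2 (-0.65) and without cows 10, 14, 15 and 17 (-0.96). The fifth was the correlation with IFI6 on HC alone (0.56), which was 0.23 without cows 14 and 15. Without cows 14 and 15, values that changed sign were the diet difference of BOLA-A in Holsteins (-0.00022), the parity difference of IFI6 in Jerseys (0.15), its interaction of RFI and diet there (0.44, and 0.39 without cows 10 and 17 as well), and the period differences of BOLA-A (-0.026, and -0.021 without all 4 cows) and IFI6 (-0.012, and -0.052). With period added, the interaction of BOLA-A in Holsteins was -0.010.

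Leaving out 1 cow at a time, the BOLA-A difference of RFI between breeds lay between -0.78 and -0.54, and passed without cow 9 (-0.71) and without cow 15. Values that changed sign ranged, for BOLA-A, from -0.022 to 0.070 for diet in Holsteins, from -0.11 to 0.061 for parity in Jerseys, from -0.054 to 0.19 and from -0.035 to 0.17 for RFI by diet in Holsteins and Jerseys, and from -0.031 to 0.026 for period. For IFI6 they ranged from -0.089 to 0.21 for parity in Holsteins, from -0.39 to 0.15 for parity in Jerseys, from -0.051 to 0.086 and from -0.45 to 0.44 for RFI by diet in Holsteins and Jerseys, and from -0.0056 to 0.24 for period. The cause of these changes was not tested.

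With the cow as a replicate block, as the labels pair the libraries, the RFI difference of BOLA-A in Jerseys was -0.49 (limma adjusted p = 0.132). Its difference between breeds was -0.64 (limma adjusted p = 0.178). No call on either gene changed in the comparisons fitted with the block, which leave out RFI by diet. The labelled pairing is the one that cows 10, 14, 15 and 17 go against. With the cow as a fixed effect in edgeR, the genes called went from 94 to 345 for diet in Holsteins and 44 to 71 in Jerseys. For parity and RFI the block was a random effect in limma, set against edgeR without a block. There they went from 46 to 7 and 27 to 10 for parity, and 8 to 5 for RFI in Holsteins. These changes combine the block with a change of test. The number of genes called moved with the setting. Over the alternatives it ran from 0 to 61 for RFI in Holsteins (8 with the settings reported), from 0 to 21 in Jerseys (4), from 2 to 35 for RFI by breed (6), from 409 to 1821 for breed (1172), from 15 to 345 (94) and from 0 to 196 (44) for diet in Holsteins and Jerseys, and from 1 to 199 (46) and from 0 to 269 (27) for parity. IFI6 rests on 85 to 749 read pairs per library and BOLA-A on 206 to 809, which sets a limit to small differences.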
